A study of Homo sapiens with 16 samples.

Results

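The genes described here are 10 members of the E2F and RB families: the transcription factors E2F1 to E2F8 and the pocket proteins RB1 and RBL1. They were taken by symbol from a table of read counts that holds 23354 genes. All 10 passed the filter on low counts, which left 14215 genes for testing. The study asked how blocking SUMOylation changes the response of multiple myeloma cells to dexamethasone (Dex), and its RNA-seq comprised 16 libraries from the related myeloma cell lines MM1S and MM1R.

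E2F factors bind the promoters of genes needed for entry into S phase and DNA replication. E2F1, E2F2 and E2F3 are called activators, because they switch these genes on once cyclin D and cyclin E kinases have removed the pocket protein RB1 from them. E2F4 and E2F5 act mostly as repressors and carry out this role together with the pocket proteins RBL1 (p107) and RBL2 (p130). E2F6, E2F7 and E2F8 repress without a pocket protein, and E2F7 and E2F8 are themselves E2F target genes that shut the programme down later in the cycle. In plasma cell tumours the cyclin D genes upstream of the pocket proteins are commonly overexpressed.

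Each line had a vehicle group (Veh), a group with TAK-981 at 0.1 μM (TAK), a group with Dex at 1 μM, and a group with both drugs at these doses (combo). TAK-981 is a small molecule that blocks the SUMO E1 enzyme, and Dex is a synthetic glucocorticoid. Drug exposure lasted 48 h, whereas the labels give no time for vehicle. MM1S is glucocorticoid sensitive per its label and MM1R is its Dex-resistant counterpart, so each phenotype is represented by 1 line, without any genetic change made by the study. Each of the 8 groups held 2 libraries. The labels say only that treatments were done in duplicate. The p-values below are set against the spread between these samples, pooled over all 8 groups, and that spread may be technical.

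The library totals ran from 15707587 to 20644510 counts in MM1S and from 18987739 to 24796539 in MM1R. NR3C1, the gene of the glucocorticoid receptor, stood at 279.7 ± 4.3 CPM (SD, n = 2) in vehicle-treated MM1S and at 18.9 ± 1.4 in vehicle-treated MM1R. CPM here is the read count divided by the TMM-scaled library size, except for the marker sums below, which use the unscaled library totals. A list of 7 plasma cell markers, among them SDC1 and IRF4, summed to between 3149 and 5523 CPM in every library, and 0 of them sat at the floor of 3 counts. The lists for B cells, T cells, monocytes, stroma and epithelium each summed to at most 5.67 CPM. RNA was measured over whole cultures, so a change in the number of cells of a cell cycle stage and a change in RNA per cell cannot be told apart.

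Promoter windows of 300 bases, from 250 before to 50 after the transcription start in RefSeq (GRCh38.p14), were found for 8 of the 10 members. No window was matched for E2F5 or E2F8. The E2F consensus searched was TTTCCCGC, TTTCGCGC, TTTGCCGC or TTTGGCGC on either strand. At least 1 of these letter runs was present in 3.31% of 35116 promoter windows, and in the windows of E2F1, E2F2, E2F3 and RBL1. At least 2 were present in 0.145% of the windows, and in those of E2F1 and RBL1. The stretches that hold them are shown with the consensus in capitals and positions counted from the transcription start. These 4 genes fell with TAK-981 in both lines. So did E2F7, which has no full consensus in its window, and E2F8, for which no window was matched. A match of letters is a description and does not say that a factor binds there.
E2F1 (chr20:33686398-33686427, minus strand, -42 to -13): ggctctttcGCGGCAAAaaggaTTTGGCGC
E2F2 (chr1:23531257-23531286, minus strand, -53 to -24): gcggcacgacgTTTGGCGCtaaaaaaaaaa
E2F3 (chr6:20401814-20401843, plus strand, -65 to -36): tttgaaaagccgGCGGGAAAtccgagtttc
RBL1 (chr20:37096005-37096034, minus strand, -37 to -8): cagctgcagatTTTCGCGCgcTTTGGCGCa

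The shorter core of 7 letters (the same runs without their first T, so that every consensus match is also a core match) was present in 13% of all windows. It added 2 members, E2F6 and E2F7, which have no full consensus in the window. Neither form was present for E2F4 or RB1. The cell cycle element TTTGAA, found in 15.2% of all windows, was present for 1 member, E2F3.

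Members differed in level before any drug was given. Per kilobase of the gene length given in the count table (FPKM), E2F2 was the highest member in vehicle-treated MM1S at 35.2 ± 0.91, followed by E2F4 at 33.6 ± 0.74, E2F7 at 29.8 ± 0.91 and E2F1 at 26.2 ± 1.8 (SD, n = 2). RBL1 (17.8 ± 0.17), RB1 (15.9 ± 0.016), E2F3 (14.8 ± 0.75) and E2F8 (11.5 ± 0.71) came next. E2F5 (6.52 ± 0.20) and E2F6 (2.93 ± 0.081) were lowest. Each neighbouring pair in this order had libraries that did not overlap. In vehicle-treated MM1R, E2F2 again led at 54.2 ± 1.7 FPKM. E2F4 at 36.6 ± 0.71 and E2F1 at 35.7 ± 0.54 followed with overlapping libraries, and E2F6 was again last at 2.75 ± 0.35.

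**Figure D1:**
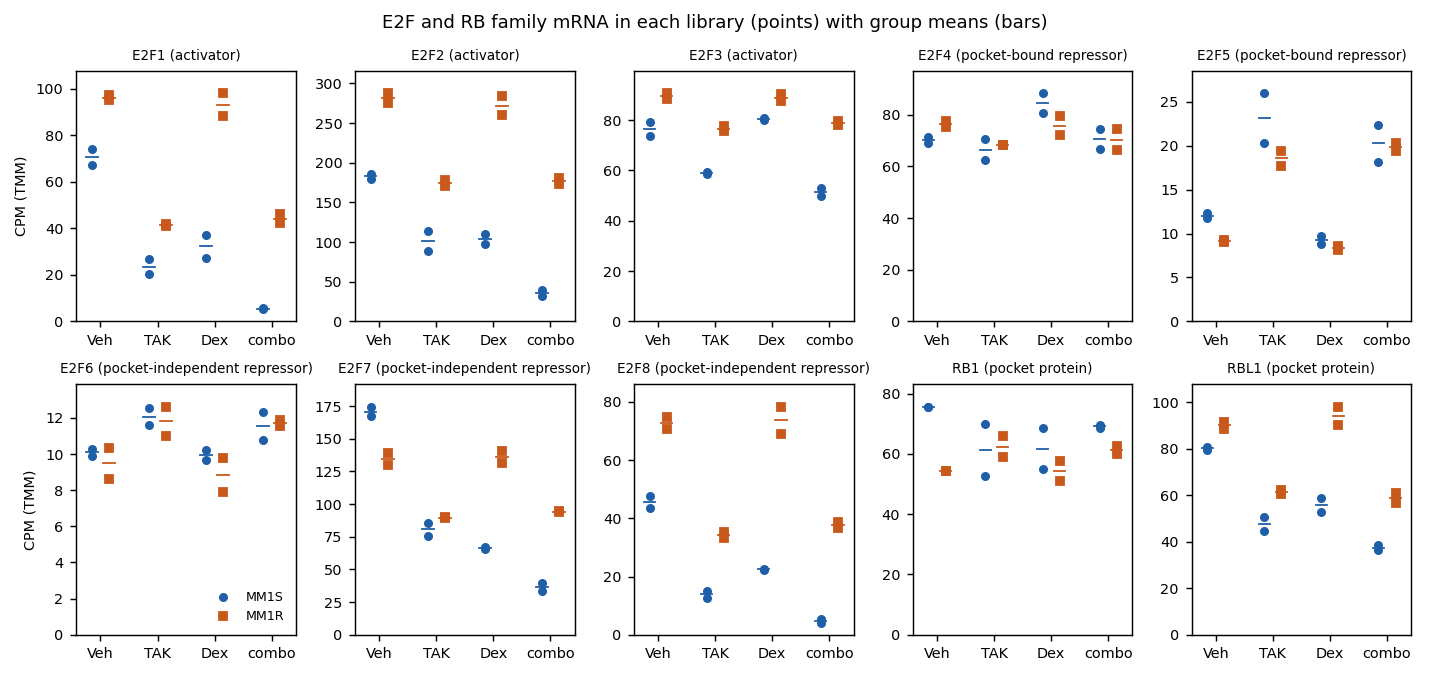
TMM-scaled CPM of the 10 members (1 panel each, vertical axis from 0) in the 2 libraries of each group (points) with the group mean (bar), for MM1S (circles) and MM1R (squares) with vehicle, TAK-981, Dex or both. E2F1, E2F2, E2F7, E2F8 and RBL1 were below vehicle with TAK-981 in both lines and lowest with combo in MM1S, while E2F5 was above vehicle wherever TAK-981 was present.

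The activators fell with TAK-981 in both lines. E2F1 (hg19 chromosome 20, 32263292 to 32274210), the first activator described and a driver of S phase entry, stood at 67.2 and 73.9 CPM in the vehicle libraries of MM1S, 20.2 and 26.7 with TAK-981, 27.3 and 37.2 with Dex, and 5.39 and 5.66 with combo. In MM1R it stood at 95.1 and 97.2 with vehicle, 40.9 and 41.9 with TAK-981, 88.0 and 97.9 with Dex, and 42.2 and 46.0 with combo. In MM1S every treated library lay below both vehicle libraries, whereas in MM1R this held for TAK-981 and combo and the Dex libraries overlapped vehicle. TAK-981 lowered E2F1 3.01-fold in MM1S (log2 fold change -1.59 ± 0.13 SE, edgeR adjusted p = 1.8e-08) and 2.32-fold in MM1R (-1.22 ± 0.12, edgeR adjusted p = 2.4e-07). The MM1S change was among the 1.12% of all tested genes with a log2 fold change at least as low.

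E2F2 (chromosome 1, 23832920 to 23857712), an activator that shares the cyclin A binding region of E2F1 and E2F3, was the most abundant of the 3 in every group except combo in MM1S. There the mean of E2F3 was higher, at 51.5 CPM against 35.4. E2F2 stood at 179 and 186 CPM with vehicle in MM1S, 89.3 and 114 with TAK-981, 97.2 and 110.1 with Dex, and 31.8 and 39.0 with combo. In MM1R the vehicle libraries held 275 and 287 CPM, those with TAK-981 170.3 and 178, those with Dex 260.4 and 284, and those with combo 174 and 181. Vehicle and TAK-981 libraries did not overlap in either line. The log2 fold change with TAK-981 was -0.84 ± 0.10 in MM1S (edgeR adjusted p = 2.6e-06) and -0.69 ± 0.099 in MM1R (1.8e-05). Another entry of the table, LOC100133331, covers all 24793 bases of the E2F2 span on the same strand. It held 26 to 52 counts per library, against up to 6971 for E2F2.

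E2F3 (chromosome 6, 20402137 to 20493945), the activator most often amplified in solid tumours, moved less. Its vehicle libraries held 79.3 and 73.8 CPM in MM1S and 88.2 and 90.6 in MM1R. With TAK-981 it stood at 59.4 and 58.7 CPM in MM1S, and at 77.6 and 75.7 in MM1R. All TAK-981 libraries lay below the vehicle libraries of their line. The log2 fold changes were -0.37 ± 0.061 (edgeR adjusted p = 5.2e-05) in MM1S and -0.22 ± 0.059 (0.0041) in MM1R. With Dex in MM1S, E2F3 stood at 80.7 and 80.1 CPM and did not pass the test (log2 fold change 0.07 ± 0.060, edgeR adjusted p = 0.36). E2F1 and E2F2 fell there by 1.13 and 0.82 on the log2 scale (adjusted p = 1.1e-06 and 4.9e-06).

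E2F7 and E2F8, the repressors that act without a pocket protein and are structurally apart from the other E2Fs in having a pair of DNA-binding domains, fell together with the activators. E2F8 (chromosome 11, 19245610 to 19263202) stood at 47.5 and 43.5 CPM with vehicle in MM1S, 12.7 and 15.03 with TAK-981, 22.3 and 22.7 with Dex, and 4.09 and 5.55 with combo. In MM1R it stood at 70.7 and 74.7 with vehicle, 33.2 and 35.4 with TAK-981, 69.0 and 78.3 with Dex, and 36.8 and 38.8 with combo. This is the same order of groups as for E2F1 in MM1S, and in both lines TAK-981 libraries lay below vehicle. TAK-981 lowered E2F8 3.29-fold in MM1S (log2 fold change -1.72 ± 0.10, edgeR adjusted p = 2.0e-10), the lowest value of the 10 members in that comparison, and 2.12-fold in MM1R (-1.08 ± 0.092, edgeR adjusted p = 2.1e-08).

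E2F7 (chromosome 12, 77415026 to 77459360) stood at 175 and 167 CPM with vehicle in MM1S, 75.9 and 85.2 with TAK-981, 65.9 and 67.3 with Dex, and 33.6 and 40.0 with combo. In MM1R it stood at 129.9 and 139 with vehicle, 89.1 and 90.0 with TAK-981, 141 and 131 with Dex, and 94.5 and 94.0 with combo. Of the 10 members E2F7 had the lowest log2 fold change with Dex in MM1S, at -1.36 ± 0.075 (edgeR adjusted p = 8.3e-11). With TAK-981 it fell by 1.08 on the log2 scale in MM1S (edgeR adjusted p = 9.0e-10) and by 0.59 in MM1R (2.6e-06).

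E2F6 (chromosome 2, 11584501 to 11606303), which works in a Polycomb complex (PRC1.6) and silences germline genes, was the lowest member per length with vehicle in both lines. It stood at 10.3 and 9.89 CPM with vehicle and 12.6 and 11.6 with TAK-981 in MM1S, and at 10.3 and 8.62 with vehicle and 12.6 and 10.98 with TAK-981 in MM1R. The TAK-981 libraries were above vehicle in both lines. The log2 fold change was 0.26 ± 0.13 in MM1S, which did not pass the test (edgeR adjusted p = 0.10), and 0.31 ± 0.12 in MM1R, which did (0.041). The MM1R call was lost with DESeq2 (adjusted p = 0.10), without the second vehicle library (0.33) and without the first TAK-981 library (0.29).

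With TAK-981, E2F5 had the highest log2 fold change of the 10 members in both lines. Of all tested genes, 7.06% in MM1S and 8.43% in MM1R rose at least as much. E2F5 (chromosome 8, 86089619 to 86126753), a repressor bound mainly by RBL2, stood at 12.3 and 11.8 CPM with vehicle in MM1S, 25.9 and 20.3 with TAK-981, 8.81 and 9.68 with Dex, and 22.4 and 18.1 with combo. In MM1R it stood at 9.26 and 9.07 with vehicle, 19.4 and 17.7 with TAK-981, 8.13 and 8.60 with Dex, and 19.3 and 20.3 with combo. All 8 libraries that received TAK-981, alone or with Dex, held at least 17.7 CPM, and all 8 that did not held at most 12.3. The increase with TAK-981 was 1.92-fold in MM1S (log2 fold change 0.94 ± 0.12, edgeR adjusted p = 3.4e-06) and 2.02-fold in MM1R (1.02 ± 0.12, 1.9e-06). Its log2 fold change of -0.38 ± 0.13 with Dex in MM1S passed the test (edgeR adjusted p = 0.028) but lost its call when either vehicle library or the first Dex library was left out (0.068 to 0.14).

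The last 466 bases of the E2F5 span overlap C8orf59, a gene on the opposite strand with 212 to 433 counts per library, where E2F5 held at most 500. The strand setting of the counting is not given in the sources used here, so how reads of the shared bases were counted is not known. C8orf59 did not rise with E2F5, and the effect of the overlap on the E2F5 counts was not tested. It stood at 15.2 ± 0.068 CPM with vehicle and 14.4 ± 2.8 with TAK-981 in MM1S (log2 fold change -0.07 ± 0.14, edgeR adjusted p = 0.69), and its change in MM1R was -0.42 ± 0.14 (0.014).

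E2F4 (chromosome 16, 67226068 to 67232821), the E2F most abundant in resting cells and the main partner of RBL2, stayed near its vehicle level. It stood at 69.1 and 71.3 CPM with vehicle, 62.5 and 70.6 with TAK-981, 80.8 and 88.2 with Dex, and 66.8 and 74.6 with combo in MM1S. In MM1R the 8 libraries ranged from 66.5 to 79.4. Vehicle and TAK-981 libraries overlapped in MM1S (log2 fold change -0.08 ± 0.080, edgeR adjusted p = 0.45). In MM1R the change was -0.16 ± 0.079 (0.09). Dex in MM1S raised E2F4 by 0.27 ± 0.079 (edgeR adjusted p = 0.010), a call that was lost without the first vehicle library (0.081) or the second Dex library (0.11).

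Among the pocket proteins, RBL1 fell and RB1 changed little. RBL1 (chromosome 20, 35626178 to 35724410), the pocket protein that is itself an E2F target, stood at 80.7 and 79.7 CPM with vehicle in MM1S, 50.6 and 44.5 with TAK-981, 58.6 and 52.6 with Dex, and 38.6 and 36.3 with combo. In MM1R it stood at 91.4 and 88.6 with vehicle, 62.3 and 60.7 with TAK-981, 98.1 and 90.4 with Dex, and 56.6 and 60.9 with combo. TAK-981 and vehicle libraries did not overlap in either line, and the log2 fold changes were -0.75 ± 0.076 in MM1S (edgeR adjusted p = 1.6e-07) and -0.55 ± 0.074 in MM1R (6.1e-06).

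RB1 (chromosome 13, 48877883 to 49056026), the tumour suppressor that holds the activators in check, stood at 75.5 and 75.6 CPM with vehicle in MM1S, 69.9 and 52.7 with TAK-981, 68.5 and 54.9 with Dex, and 68.7 and 69.4 with combo. Replicates within the TAK-981 and Dex groups were further apart than their vehicle pair. The log2 fold change with TAK-981 of -0.30 ± 0.11 passed the test (edgeR adjusted p = 0.034), but without the second TAK-981 library it was -0.11 (0.38), and the call was also lost without either vehicle library or in a fit of the groups compared alone. The change with Dex of -0.29 ± 0.11 (0.045) was -0.15 without the second Dex library (0.37), and its call was also lost without either vehicle library. In MM1R the vehicle libraries held 54.5 and 54.3 CPM and those with TAK-981 65.8 and 58.9 (log2 fold change 0.20 ± 0.11, edgeR adjusted p = 0.15).

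Counted over the family, 8 of 10 members passed the test with TAK-981 in MM1S, 1 higher and 7 lower. Over all tested genes 49% passed (25.2% higher and 23.7% lower), so the share of members was above the background, on the lower side. Several of the lower members moved together over the groups. The members were chosen with earlier results of these data known, so this is a description. In MM1R 8 members passed, 2 higher (E2F5 and E2F6) and 6 lower, beside 53.4% of all genes (25.8% higher and 27.6% lower). The median log2 fold change of the 10 members was -0.56 in MM1S and -0.39 in MM1R, beside 0.037 and 0.0043 over all tested genes. With Dex in MM1S, 8 members passed, 1 higher (E2F4) and 7 lower, beside 42.3% of all genes (20.8% higher and 21.5% lower), with a member median of -0.46 beside 0.011 over all genes. Without the first MM1S vehicle library, 5 members passed in that comparison, all lower. TAK-981 and Dex were each compared with the same vehicle libraries of the line, so these counts are not independent of each other.

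Dex in MM1R changed 0 of 10 members by edgeR, and 0 had an unadjusted p under 0.05. DESeq2 also called 0. The member log2 fold changes ran from -0.13 to 0.07. Over all tested genes 0% passed by either tool, 395 genes (2.78%) had an unadjusted p under 0.05, and 29 passed when no filter on low counts was used.

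**Figure D2:**
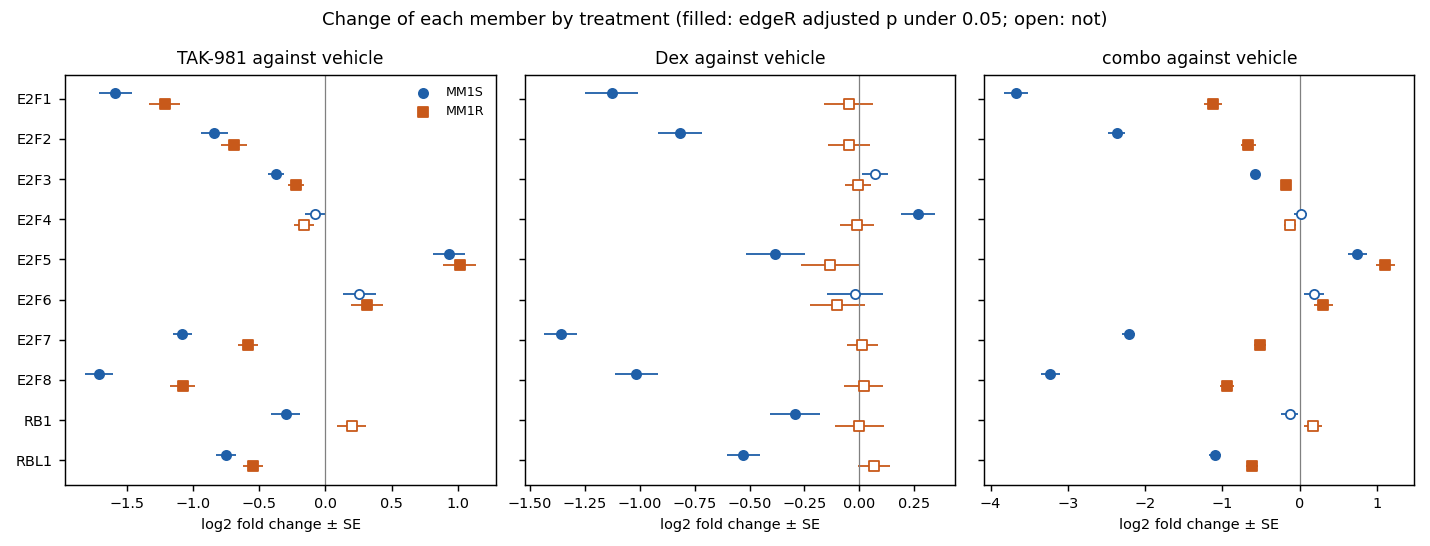
Log2 fold change against vehicle (horizontal axis, bars show ± SE) of each member with TAK-981, Dex or combo, in MM1S (circles) and MM1R (squares); filled symbols passed an edgeR adjusted p of 0.05, and the panels have different horizontal scales. E2F1, E2F2, E2F7, E2F8 and RBL1 lay left of 0 with TAK-981 in both lines and with Dex in MM1S, E2F5 lay right of 0 with TAK-981 and combo, and all Dex values of MM1R were open symbols near 0.

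The lines already differed with vehicle. MM1R had more E2F8 (log2 difference from MM1S 0.67 ± 0.090, edgeR adjusted p = 7.9e-06), E2F2 (0.62 ± 0.098, 7.1e-05), E2F1 (0.45 ± 0.11, 0.0037) and E2F3 (0.22 ± 0.059, 0.0043). It had less RB1 (-0.47 ± 0.11, 0.0022), E2F7 (-0.34 ± 0.072, 0.00069) and E2F5 (-0.40 ± 0.13, 0.018). In all, 7 members passed, 4 higher and 3 lower, beside 48.2% of all tested genes (25.6% higher and 22.6% lower). E2F7 and E2F8, which resemble each other in structure and function, thus differed between the lines in opposite directions. The E2F5 call was lost when any of the 4 vehicle libraries was left out (adjusted p = 0.051 to 0.099). The E2F1 call was lost without the first MM1S library (0.053) and that of E2F3 without the second (0.071).

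The fall with TAK-981 was deeper in MM1S than in MM1R for E2F7 and E2F8. The difference in log2 fold change (MM1R minus MM1S) was 0.50 ± 0.10 for E2F7 (edgeR adjusted p = 0.0099) and 0.63 ± 0.14 for E2F8 (0.014). These 2 of 10 members passed, both with a positive difference, beside 4.16% of all tested genes (3.19% positive and 0.978% negative). Each call was lost in 3 of the fits that left out 1 library (E2F7 0.051 to 0.067, E2F8 0.070 to 0.089). Of the 30 G1/S genes known as E2F targets (described below), 11 passed with a positive difference and 1 with a negative one. Their median difference was 0.40, beside -0.0034 over all tested genes. The difference for E2F1 was 0.37 ± 0.17 (0.22) and for RB1 0.50 ± 0.16 (0.085), and neither passed. Without the filter on low counts E2F1 (0.046) and RB1 (0.00089) both passed, and RB1 also passed with DESeq2 (0.046) and without the first TAK-981 library of MM1S (0.0017). For Dex, 5 members differed between the lines, namely E2F7 (1.37 ± 0.10, edgeR adjusted p = 1.7e-08), E2F1 (1.08 ± 0.16, 0.00010), E2F8 (1.04 ± 0.13, 8.4e-06), E2F2 (0.77 ± 0.14, 0.00051) and RBL1 (0.59 ± 0.10, 0.00028), beside 28.1% of all tested genes (15% positive and 13.1% negative). All 5 fell in MM1S, whereas in MM1R their log2 fold changes with Dex ran from -0.05 (E2F1) to 0.07 (RBL1) and none passed.

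Combo in MM1S gave the lowest group means of all 8 groups for E2F1, E2F2, E2F3, E2F7, E2F8 and RBL1. Against vehicle, E2F1 was 12.7-fold lower (log2 fold change -3.67 ± 0.16, edgeR adjusted p = 2.1e-12), E2F8 9.37-fold lower (-3.23 ± 0.13, 8.7e-14), E2F2 5.15-fold lower (-2.36 ± 0.11, 5.4e-12), E2F7 4.64-fold lower (-2.21 ± 0.080, 3.1e-14) and RBL1 2.14-fold lower (-1.10 ± 0.078, 6.7e-10). Only 0.239% of all tested genes had a log2 fold change as low as that of E2F1. E2F3 fell 1.49-fold, E2F5 rose 1.67-fold, and E2F4, E2F6 and RB1 did not pass (edgeR adjusted p = 0.91, 0.21 and 0.33). In total 7 members passed, 1 higher and 6 lower, beside 60.3% of all genes (30.8% higher and 29.5% lower). Per length, E2F1 fell from 26.2 to 2.05 ± 0.072 FPKM and E2F8 from 11.5 to 1.22 ± 0.26, below E2F6 at 3.36 ± 0.32. E2F4, at 33.8 ± 2.6, was then the highest member.

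Against TAK-981 alone, combo lowered 6 members further in MM1S, beside 35.1% of all tested genes (14.5% higher and 20.6% lower). They were E2F1 (log2 fold change -2.08 ± 0.17, edgeR adjusted p = 5.0e-08), E2F2 (-1.52 ± 0.11), E2F8 (-1.51 ± 0.14), E2F7 (-1.13 ± 0.080), RBL1 (-0.34 ± 0.081) and E2F3 (-0.20 ± 0.063). The E2F3 call (adjusted p = 0.019) was lost when library sizes were not scaled (0.066) and without the filter (0.064), and those of E2F3 (0.28) and RBL1 (0.055) were lost in a fit of the groups compared alone. Against Dex alone, 8 members passed in MM1S (E2F5 higher, 7 lower), beside 47.6% of all genes (22.2% higher and 25.4% lower). In MM1R 8 passed (E2F5 and E2F6 higher, 6 lower), beside 48.4% of all genes (23.1% higher and 25.3% lower).

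In MM1R combo was close to TAK-981 alone. Between these groups 0 of 10 members passed by edgeR or DESeq2, 0 had an unadjusted p under 0.05, and the log2 fold changes ran from -0.07 to 0.14. Over all genes 0% passed by either tool and 214 had an unadjusted p under 0.05, while 8 passed without the filter on low counts and 3 in a fit of the groups compared alone. Against vehicle 8 members passed with combo in MM1R, 2 higher and 6 lower, beside 51.5% of all genes (24.8% higher and 26.7% lower), with E2F1 at -1.12 ± 0.12, E2F8 at -0.94 ± 0.091 and E2F5 at 1.11 ± 0.12 (edgeR adjusted p = 5.4e-07, 1.1e-07 and 5.7e-07).

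The combo change in MM1S was then set against the added changes of TAK-981 and Dex alone. For E2F1 these log2 fold changes summed to -2.72 and combo gave -3.67, a departure of -0.95 ± 0.22 (edgeR adjusted p = 0.0072). For E2F2 the sum was -1.66 and the departure -0.70 ± 0.15 (0.0044). For E2F3 the departure was -0.27 ± 0.087 (0.044), a call that was lost under every alternative setting except the replicate block and in 6 of the 8 fits without 1 MM1S library. The 3 members that passed were the 3 activators, all with a negative departure, beside 14.9% of all tested genes (5.47% positive and 9.48% negative). A negative departure was not limited to these members. Of the 30 G1/S genes known as E2F targets (described below), 11 passed with a negative departure and 1 with a positive one. Their median departure was -0.29, beside -0.029 over all tested genes. E2F8 fell short of the threshold (-0.49 ± 0.18, 0.066), but passed without the filter (0.033), without the first TAK-981 library (0.015) and without the second combo library (0.031). E2F7 (0.23 ± 0.11, 0.17) and RBL1 (0.18 ± 0.11, 0.28) had values of the opposite sign. RB1, at 0.47 ± 0.16 (0.060), passed with DESeq2 (0.036), without the filter (0.0011), without the first TAK-981 library (0.00080) and without the first Dex library. In MM1R 0 members departed from the sum by edgeR or DESeq2, with values from -0.13 to 0.23, and 0 had an unadjusted p under 0.05. Over all genes 0% passed by either tool, and 19 passed without the filter.

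**Figure D3:**
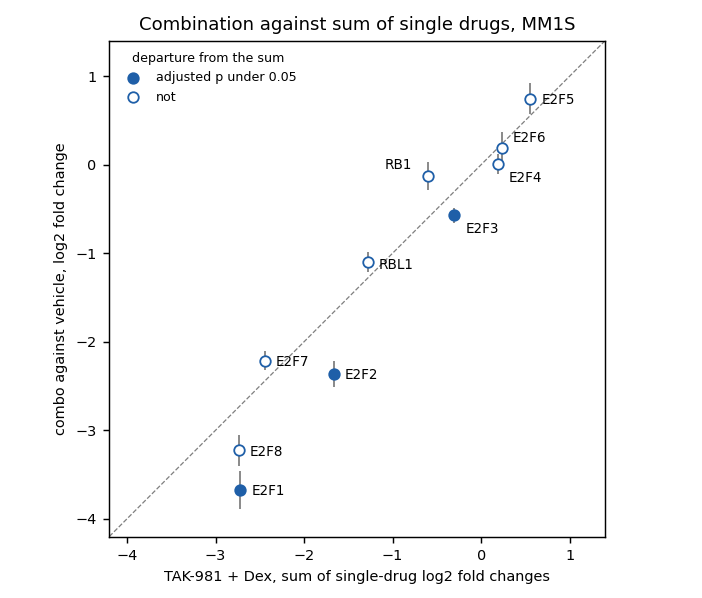
Log2 fold change with combo against vehicle in MM1S (vertical axis) against the sum of the log2 fold changes with TAK-981 and Dex alone (horizontal axis) for the 10 members; bars show ± SE of the departure from the sum and the dashed line marks equality. E2F1 and E2F2 lay furthest below the line, at departures of -0.95 and -0.70.

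Activator and repressor transcripts were compared as the mean log2 CPM of E2F1 to E2F3 minus that of each repressor class, as a description without a test. Against E2F6, E2F7 and E2F8, the difference in MM1S was 1.21 ± 0.078 with vehicle, 1.12 ± 0.10 with TAK-981, 1.38 ± 0.11 with Dex and 0.77 ± 0.0073 with combo (SD, n = 2). With TAK-981 the shift of -0.09 was smaller than its SD of 0.13. The shift with combo, -0.45 with an SD of 0.078, was larger. In MM1R the difference was 1.57 ± 0.050 with vehicle and 1.31 ± 0.035 with TAK-981, a shift of -0.26 with an SD of 0.061. This repressor mean joins members that moved in opposite directions. In MM1S, E2F6 had log2 fold changes of 0.26 with TAK-981 and 0.19 with combo, neither passing the test. E2F7 (-1.08 and -2.21) and E2F8 (-1.72 and -3.23) fell there. The shifts therefore do not say whether the activators fell more than E2F7 and E2F8.

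Against E2F4 and E2F5 the shifts were larger. In MM1S the difference was 1.77 ± 0.026 with vehicle, 0.41 ± 0.24 with TAK-981, 1.20 ± 0.052 with Dex and -0.80 ± 0.16 with combo. In MM1R it was 2.33 ± 0.028 with vehicle, 1.20 ± 0.057 with TAK-981, 2.37 ± 0.022 with Dex and 1.19 ± 0.044 with combo. Both measures are differences of means of log2 CPM, in which each gene has equal weight whatever its level. Gene length adds a constant, so only their change between groups is read. With TAK-981 in MM1S the mean of E2F4 and E2F5 moved mainly through E2F5 (log2 fold change 0.94), as E2F4 changed by -0.08.

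**Figure D4:**
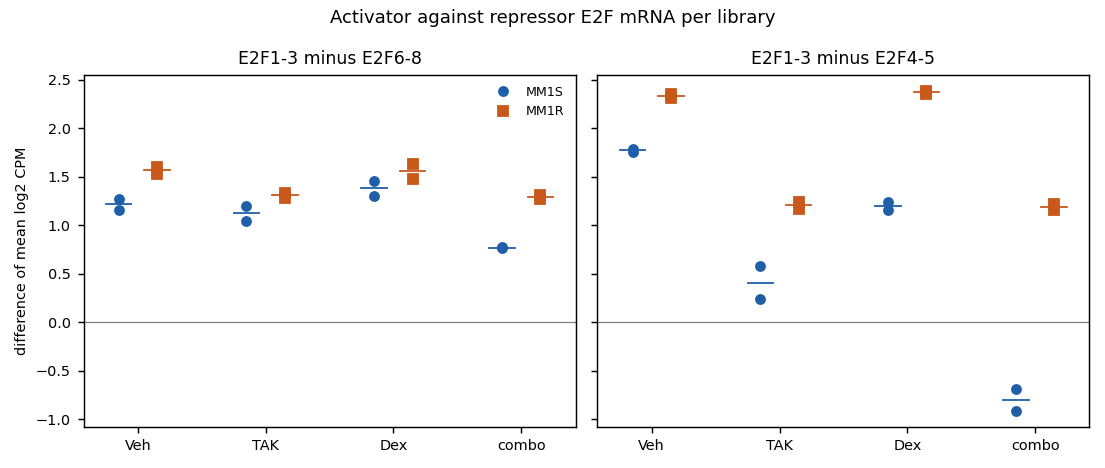
Mean log2 CPM of E2F1 to E2F3 minus that of E2F6 to E2F8 (left) or of E2F4 and E2F5 (right) in each library (points) with group means (bars), for MM1S (circles) and MM1R (squares). The left values stay between 0.77 and 1.57 on group average, while the right ones reach -0.80 with combo in MM1S.

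Across the 8 group means, E2F1 followed E2F8 most closely among the members (Pearson r = 0.99), and E2F2 (0.99), E2F3 (0.95) and RBL1 (0.96) also had E2F8 as their closest member. E2F5 was closest to E2F6 (0.97) and furthest from E2F4 (-0.81). RB1 had no close member (highest r = 0.39, with E2F6). Among all tested genes with a mean log2 CPM of at least 3, the closest to E2F1 were DSCC1, ZWINT and TK1 (each 0.999), and the closest to E2F7 were FADS1 (0.998), TMEM144 (0.993) and CCDC134 (0.991). RB1 was nearest to RFX7 (0.94), KLHL3 (0.92) and ARSK (0.91). The 8 points come from 2 lines under the same treatments, and these values are descriptive.

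Of the partners of the family, 10 of 11 listed genes were tested, and with TAK-981 in MM1S 1 was higher and 6 were lower, beside 25.2% higher and 23.7% lower over all tested genes. Their median log2 fold change was -0.69, beside 0.037 over all tested genes. RBL2, the remaining pocket protein and not one of the 10 members, rose from 220.1 ± 3.2 to 264 ± 9.4 CPM in MM1S (log2 fold change 0.26, edgeR adjusted p = 0.00035) and to 287 ± 1.5 with combo. It rose in MM1R as well, from 189 ± 0.18 to 221 ± 1.5 with TAK-981 (0.22, 0.0014). TFDP1, the DNA-binding partner that E2F1 to E2F6 need, fell by 0.87 in MM1S and by 1.11 in MM1R (edgeR adjusted p = 5.8e-09 and 2.8e-10), while its relative TFDP2 changed by -0.03 in MM1S (0.82) and 0.24 in MM1R (0.022). MYBL2 and FOXM1, which take the MuvB core over from the repressors to drive mitotic genes, fell by 1.11 and 1.15 with TAK-981 in MM1S and by 2.84 and 2.56 with combo. Within the MuvB core, LIN9 and LIN54 fell with TAK-981 in MM1S (-0.87 and -0.85) and LIN52 did not pass (-0.12, 0.35).

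In the cyclin and CDK list upstream of the pocket proteins 15 of 16 genes were tested, and with TAK-981 3 were higher and 10 lower in MM1S, beside 25.2% higher and 23.7% lower over all tested genes. In MM1R 5 were higher and 7 lower, beside 25.8% and 27.6%. CCND2, the most abundant cyclin D gene here, fell from 2298 ± 89 to 1367 ± 49 CPM with TAK-981 and to 713 ± 52 with combo in MM1S. CCND3 moved differently, from 27.5 ± 0.48 CPM with vehicle to 15.99 ± 1.1 with TAK-981, 96.5 ± 11 with Dex and 114 ± 3.7 with combo in MM1S, and its Dex change of 1.81 was the highest of the list (edgeR adjusted p = 5.5e-12). CCND1 stood at 13.1 ± 0.61 CPM in vehicle-treated MM1S and fell by 1.73 with Dex. The cyclin E genes CCNE1 and CCNE2, which complete RB1 phosphorylation, fell by 1.22 and 1.56 with TAK-981 in MM1S and by 1.03 and 0.97 in MM1R. CCNE2 was low and its replicates lay apart with TAK-981 in MM1S, at 90 and 45 counts (3.49 ± 1.7 CPM). CDK4 and CDK6, the kinases of cyclin D, had log2 fold changes of -0.50 and -0.24 in MM1S and of -0.68 and 0.33 in MM1R, all passing the test. CDC25A, the phosphatase that activates CDK2, had the smallest adjusted p of the lower genes in MM1S (-1.45, edgeR adjusted p = 1.3e-10).

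Among the CDK inhibitors, CDKN1B (p27) rose by 0.44 with TAK-981 in both lines (edgeR adjusted p = 2.2e-05 in MM1S and 2.3e-05 in MM1R). In MM1S it stood at 289 ± 0.81 CPM with vehicle, 226 ± 15 with Dex and 283 ± 12 with combo. In MM1R it stood at 233 ± 0.44 CPM with vehicle and 321 ± 14 with combo. CDKN1A (p21) fell by 0.24 in MM1S (0.0077) and stood at 0.14 in MM1R (0.066). With vehicle it was 1.94 higher on the log2 scale in MM1R than in MM1S (edgeR adjusted p = 1.6e-13). CDKN2A, which encodes p16 and ARF, had 3 counts in both vehicle libraries of MM1S and 911 and 994 in those of MM1R. CDKN2C (p18), an inhibitor of CDK4 and CDK6, had 0 or 1 count in every library and was not tested.

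The list of 30 G1/S genes known as E2F targets was tested in full. With TAK-981 29 were lower and 1 was higher in both lines, beside 23.7% of all tested genes lower in MM1S and 27.6% in MM1R, with a median log2 fold change of -1.47 in MM1S and -1.08 in MM1R. The gene that rose was SLBP, which binds histone mRNA, from 117 ± 1.6 to 289 ± 10 CPM in MM1S and from 151 ± 0.050 to 242 ± 6.6 in MM1R. MCM4, a subunit of the replicative helicase, had the smallest adjusted p of the lower genes and went from 330.0 ± 13 to 84.5 ± 9.2 CPM in MM1S. With Dex in MM1S all 30 were lower (median -0.86), beside 21.5% of all tested genes, and with Dex in MM1R 0 passed by edgeR.

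Of the PRC1.6 complex around E2F6, 10 genes were tested, and 3 were higher and 3 lower with TAK-981 in MM1S, beside 25.2% higher and 23.7% lower over all tested genes. In MM1R 2 were higher and 4 lower, beside 25.8% and 27.6%. PCGF6, its defining subunit, had log2 fold changes of -0.55 and -0.74 in MM1S and MM1R (edgeR adjusted p = 0.0022 and 8.0e-05). MGA, its scaffold, had changes of 0.17 and 0.14 (0.023 and 0.040), and L3MBTL2 of 0.10 and -0.31 (0.40 and 0.0064). RING1, an E3 ligase of Polycomb complexes, rose by 0.40 in MM1S (0.00025) and CBX3, a reader of methylated histone H3, fell by 0.62 (3.7e-07). Of 10 germline genes that E2F6 is known to silence, only SMC1B passed the filter. It stood at 0.54 ± 0.033 CPM with vehicle in MM1S and 0.36 ± 0.22 with TAK-981 (-0.57 ± 0.67, edgeR adjusted p = 0.51). STAG3 had 0 to 7 counts in every library.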

How the data were processed

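RNA-seq of 16 libraries (2 per group, 8 groups) was analysed. The authors deposited raw counts per gene and library. The submitters' processing notes name bcl2fastq 2.18.0.12, STAR 2.6.0, HTSeq 0.6.0, edgeR 3.28.1 and hg19. The strand setting and the annotation are not given in the sources used here. Gene positions and lengths are those of the table. Genes were kept with filterByExpr, scaled by TMM and fitted with the robust quasi-likelihood model of edgeR 4.0.16 (R 4.3.3), with 1 term per group over all libraries (8 residual degrees of freedom). Over 15 contrasts, a gene passed at a Benjamini-Hochberg adjusted p under 0.05 over 14215 genes. SE is the absolute log2 fold change divided by the square root of F. Log2 CPM used a prior count of 2. FPKM is CPM divided by the length in kb. The script was tested on simulated data.

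The members and lists (partners and MuvB, cyclin and CDK axis, E2F turnover, RB corepressors, PRC1.6, germline genes, G1/S targets) were chosen from general knowledge with earlier results of these data known. Named are all members, fixed partners and regulators, and from each list the gene with the smallest adjusted p in each direction with TAK-981 in MM1S, and the 3 tested genes most correlated with E2F1, E2F7 and RB1 over group means. CDKN2A, C8orf59, NR3C1 and LOC100133331 were chosen after their values were seen. Alternatives were RLE, library size only, no filter, a replicate block, only the groups compared, DESeq2 1.42.0 and leaving out each library, where the group left with 1 library is assumed to vary like the others. Replicates differed by more than counting noise (chi-square per degree of freedom 2.15 for MM1R combo to 22.6 for MM1S TAK, with 20.4 for MM1S Dex). The fit shares its estimate of spread over these unequal groups. With TAK-981 in MM1S, the edgeR and DESeq2 alternatives that kept every library gave adjusted p of at most 1.8e-05 for E2F1 and 7.5e-06 for E2F8. Comparisons within a line share vehicle libraries. Promoter sequences were read from a RefSeq table of GRCh38.p14 and no coordinate was converted.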

Additional observations from a re-analysis of the deposited data

Results flagged for a closer look

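Of the tests of a difference between effects, 10 results passed an edgeR adjusted p of 0.05. In the TAK-981 response, MM1R minus MM1S on the log2 scale, E2F7 differed by 0.50 (adjusted p = 0.0099) and E2F8 by 0.63 (0.014), and both fell less in MM1R. In the Dex response, MM1R minus MM1S, E2F1 differed by 1.08 (0.00010), E2F2 by 0.77 (0.00051), E2F7 by 1.37 (1.7e-08), E2F8 by 1.04 (8.4e-06) and RBL1 by 0.59 (0.00028). All of these fell in MM1S and did not pass the test in MM1R. NR3C1, the glucocorticoid receptor gene, was 14.8-fold lower in vehicle-treated MM1R than in MM1S, and its part in these differences was not tested. In MM1S, combo departed from the sum of the single drugs by -0.95 for E2F1 (0.0072), by -0.70 for E2F2 (0.0044) and by -0.27 for E2F3 (0.044). The E2F3 call was lost under every alternative setting except the replicate block. Groups of 2 libraries were too small for a check of single outlying libraries.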

How the results depend on the processing

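The number of members passing the test stayed within 1.5 times of the reported one in 157 of 166 alternatives over 15 comparisons. With Dex in MM1S it fell from 8 to 5 without the first vehicle library, and leaving out 1 library gave 5 to 7. For the line difference in the TAK-981 response it was 2, and 4 without the filter, and 0 to 3 with 1 library left out (0 without the first vehicle library of either line, 1 without either TAK-981 library of MM1R). For the departure of combo from the sum in MM1S it was 3, and 2 to 5 with 1 library left out (5 without the first TAK-981 library). The cause was not tested. The median over all genes moved by at most 0.018 under RLE and 0.071 under library size only. Activator differences moved by less than 1 SD under RLE, library size only and a prior count of 0.5. Leaving out 1 of 2 libraries moves them by less than 1 SD by construction.

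Same-numbered libraries deviated together weakly (correlation 0.016 to 0.26 in MM1S and -0.013 to 0.082 in MM1R), so the numbers were not taken as pairs. With a replicate block, 4 members passed for the line difference in the TAK-981 response (E2F1 and RB1 added) and 5 for the departure in MM1S (E2F8 and RB1 added). The block also added calls for E2F6 with TAK-981 in MM1S, E2F4 and RB1 with TAK-981 in MM1R, RBL1 between the lines with vehicle, and E2F4 for the line difference in the Dex response.

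Single values that changed sign were small, and none of them passed the test in the reported fit. E2F4 with combo in MM1S (0.012) became -0.0022 under RLE, -0.0044 in the fit of the groups compared and -0.0023 with DESeq2, and the E2F6 departure in MM1S (-0.047) became 0.024 under library size only. With 1 library left out, the ranges that include 0 were, in MM1S, E2F4 -0.17 to 0.0068 (TAK-981) and -0.070 to 0.085 (combo), E2F6 -0.066 to 0.020 (Dex), -0.16 to 0.033 (combo against TAK-981) and -0.14 to 0.051 (departure), and RB1 -0.016 to 0.39 (combo against TAK-981). Between lines they were E2F6 -0.23 to 0.034 with vehicle, E2F2 -0.016 to 0.34, E2F4 -0.17 to 0.0059, E2F5 -0.089 to 0.27 and E2F6 -0.067 to 0.19 for TAK-981, and E2F6 -0.24 to 0.067 for Dex.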

Other observations

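Lists on E2F protein turnover and on RB corepressors were also tested. Of 8 turnover genes, 2 were higher and 5 lower with TAK-981 in MM1S, beside 25.2% higher and 23.7% lower over all tested genes, and 1 was higher and 6 lower in MM1R, beside 25.8% and 27.6%. MDM2, the ubiquitin ligase of p53, rose by 0.64 in MM1S and 0.83 in MM1R on the log2 scale (edgeR adjusted p = 8.1e-08 and 3.2e-09). CDC20, an activator of the anaphase-promoting complex, fell by 1.05 and 0.99. SKP2 and CCNF, the substrate receptors of SCF ligases, fell by 0.53 and 0.90 in MM1S and by 0.56 and 0.73 in MM1R.

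Of 13 corepressor genes, 4 were higher and 5 lower with TAK-981 in MM1S, beside 25.2% higher and 23.7% lower over all tested genes, and their median log2 fold change was -0.11 beside 0.037 over all tested genes. ARID4B, a subunit of SIN3 complexes that binds RB1, rose by 0.47 on the log2 scale in MM1S (edgeR adjusted p = 7.9e-06). RBBP7, a histone chaperone shared by several of these complexes, fell by 0.74 in each line (4.0e-09 in MM1S and 3.9e-09 in MM1R).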
